A study of Mus musculus with 12 samples.

Results

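Lysosomes are the acidic organelles in which macrophages break down what they have taken up, and the expression of 40 genes of this compartment was measured by RNA-seq in 12 libraries of alveolar macrophages, which live on the air side of the mouse lung and were collected by lavage. The 40 genes were chosen by function, with earlier results of these data known, and named by symbol. They are 11 cathepsins and other proteases, 9 glycosidases and a sulfatase counted among them, 6 genes of lipid handling, 6 membrane, channel and secreted glycoproteins, 2 transcription factors and 6 genes of the proton pump. All 40 were in the deposited count table of 23413 genes, and all 40 were among the 12748 genes that passed a filter on low counts. Uncultured cells were taken from wild-type mice and from VDR knockout mice, with 2 libraries for each genotype at 10 weeks and 2 at 4 weeks of age, and are called fresh below. Vdr encodes the vitamin D receptor, and the labels give neither the strain nor the form of the knockout allele. Wild-type cells were also kept in culture for 24 h without vitamin D3 (2 libraries) or with 50 nM of it (2 libraries), and the labels do not give the age of the mice behind the cultured cells.

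Newly made hydrolases travel to the lysosome with a mannose-phosphate tag, and many of them work best at acid pH. The vacuolar proton pump, a rotary ATPase with a membrane-embedded V0 sector and a cytosolic V1 sector, makes the lumen acidic. TFEB and TFE3 are related transcription factors that enter the nucleus when nutrient signalling at the lysosomal surface is low and bind E-box sites, whose core is CACGTG, in the promoters of many lysosomal genes. Alveolar macrophages clear surfactant lipid and inhaled particles, so their lysosomes carry a heavy load.

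Total counts lay between 10409572 and 23233674 per library, and the 40 genes together took 3.34% to 4.02% of the counts in the 8 fresh libraries and 7.96% to 9.59% in the 4 cultured ones. Libraries of a group differed by more than sampling noise in all 6 groups (chi-square per degree of freedom between 9.985 and 52.08), and the labels do not name an animal for each, so the spread behind a p-value is that of libraries and may in part be technical. At 10 weeks replicate 2 of each genotype was female by Xist (800.3 and 787.3 CPM, the counts of a gene scaled to a common library size), and the other 10 libraries were male. For 2 libraries at 10 weeks the description code contradicts the genotype label, which was followed here: knockout replicate 1 has a wild-type code, and wild-type replicate 2 has a knockout code. Libraries labelled knockout still held Vdr transcript, at 84.2 and 45.0 CPM at 10 weeks and 45.9 and 31.3 CPM at 4 weeks, beside 56.5 to 126.9 CPM in fresh wild-type libraries, with no difference past the threshold (log2 fold change -0.61 ± 0.22 SE over both ages, edgeR adjusted p = 0.261). The counts do not say which part of the gene the reads cover, so this level does not check the deletion, and the groups are named below as they are labelled.

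RefSeq promoter windows (build GRCm38.p6, 250 bases before to 50 after a transcription start, 300 in all) matched 32 of the 40 genes by symbol, and those windows are described first because the core CACGTG was frequent in them. Atp6v1b2, Ctsh, Atp6v1h, Atp6v0d2, Asah1, Npc1, Ctsb and Galns had no window. The core, a palindrome, lay in a window of 13 of the 32 genes (40.6%), against 8.09% of 27025 genes in the same table and 7.15% of its 32851 windows. The longer TCACGTG, searched on both strands and always containing the core, lay in 12 of the 32 (37.5%), against 4.29% of genes and 3.77% of windows. Among 92 other genes of lysosome biology with a window the shares were 23.9% and 20.7%. A match is a description of letters and not of binding. The 13 matches are shown as 30-base stretches, 5′ to 3′ on the strand of the gene, with the core in capitals. Where a gene held more than 1 core, the one nearest the start is given.
Ctsa, chr2:164833766-164833795, + strand, core 8 bases after the start: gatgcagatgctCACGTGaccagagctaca
Ctsd, chr7:142387908-142387937, - strand, 95 bases before the start: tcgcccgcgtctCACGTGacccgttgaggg
Ctsl, chr13:64370739-64370768, - strand, 233 bases before: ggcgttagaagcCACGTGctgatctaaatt
Lgmn, chr12:102439124-102439153, - strand, 46 bases before: tggaatgtctgtCACGTGgtccattttata
Gaa, chr11:119267811-119267840, + strand, 137 bases before: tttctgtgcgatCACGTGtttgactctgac
Gla, chrX:134601182-134601211, - strand, 191 bases before: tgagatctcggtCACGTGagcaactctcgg
Glb1, chr9:114401018-114401047, + strand, 45 bases before: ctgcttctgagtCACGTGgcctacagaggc
Naglu, chr11:101070009-101070038, + strand, 70 bases before: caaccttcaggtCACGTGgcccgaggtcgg
Lamp1, chr8:13159134-13159163, + strand, 12 bases before: acgtgaccacatCACGTGcggaacggagcc
Mcoln1, chr8:3500462-3500491, + strand, 42 bases before: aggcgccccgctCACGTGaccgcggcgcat
Cln3, chr7:126583340-126583369, - strand, 118 bases before: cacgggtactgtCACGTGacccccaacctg
Atp6v0d1, chr8:105566050-105566079, - strand, at the start: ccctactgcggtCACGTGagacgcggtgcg
Atp6v1a, chr16:44139373-44139402, - strand, 128 bases before: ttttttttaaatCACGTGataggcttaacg
The Ctsl core is the one without a T before it or an A after it. Lamp1 held 4 cores in its window, and Ctsa, Ctsd, Gla, Mcoln1 and Cln3 held 2 each. Of the 40, the 2 genes that rose most in untreated culture, Gpnmb and Ctsk, had neither motif in their windows. They are 2 of the 19 genes with a window and no core. No other motif and no bases outside the windows were searched, so a missing match does not speak of binding either. The 250 bases before the starts of these 2 genes read as follows.
Ctsk, chr3:95498960-95499209, + strand: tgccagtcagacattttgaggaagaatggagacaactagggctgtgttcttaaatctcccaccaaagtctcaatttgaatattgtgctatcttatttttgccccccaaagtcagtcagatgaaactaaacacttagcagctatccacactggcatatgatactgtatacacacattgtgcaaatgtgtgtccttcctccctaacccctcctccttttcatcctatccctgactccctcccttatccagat
Gpnmb, chr6:49036268-49036517, + strand: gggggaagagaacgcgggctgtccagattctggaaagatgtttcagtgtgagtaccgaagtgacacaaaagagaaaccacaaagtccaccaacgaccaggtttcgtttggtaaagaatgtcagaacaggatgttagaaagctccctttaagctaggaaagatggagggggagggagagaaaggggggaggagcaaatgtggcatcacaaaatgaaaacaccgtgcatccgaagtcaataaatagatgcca

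In fresh cells the 40 genes spanned a wide range of levels, compared between genes as CPM per kb of exonic length. In wild type at 10 weeks the aspartic protease Ctsd stood first at 3370 CPM per kb, followed by the cysteine protease Ctss (2191), the saposin precursor Psap (2093), the membrane glycoprotein Lamp1 (558.1) and the carboxypeptidase Ctsz (542.5). Atp6v0d2, a V0 subunit known from osteoclasts and macrophages, ranked 6 at 468.7 CPM per kb, above its relative Atp6v0d1 at 162.9. Smpd1, the acid sphingomyelinase, ranked last at 11.67 CPM per kb. Tfeb at 16.08 and Tfe3 at 20.03 CPM per kb were also near the bottom. In untreated culture Ctsd remained first (11410 CPM per kb) and Psap was second (8732). Ctsk, the collagen-degrading protease of osteoclasts, moved from rank 12 (239.6 CPM per kb) to rank 3 (3298). Gpnmb, a transmembrane glycoprotein of lysosomes and endosomes, moved from rank 27 (71.05) to rank 5 (2028).

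**Figure D1:**
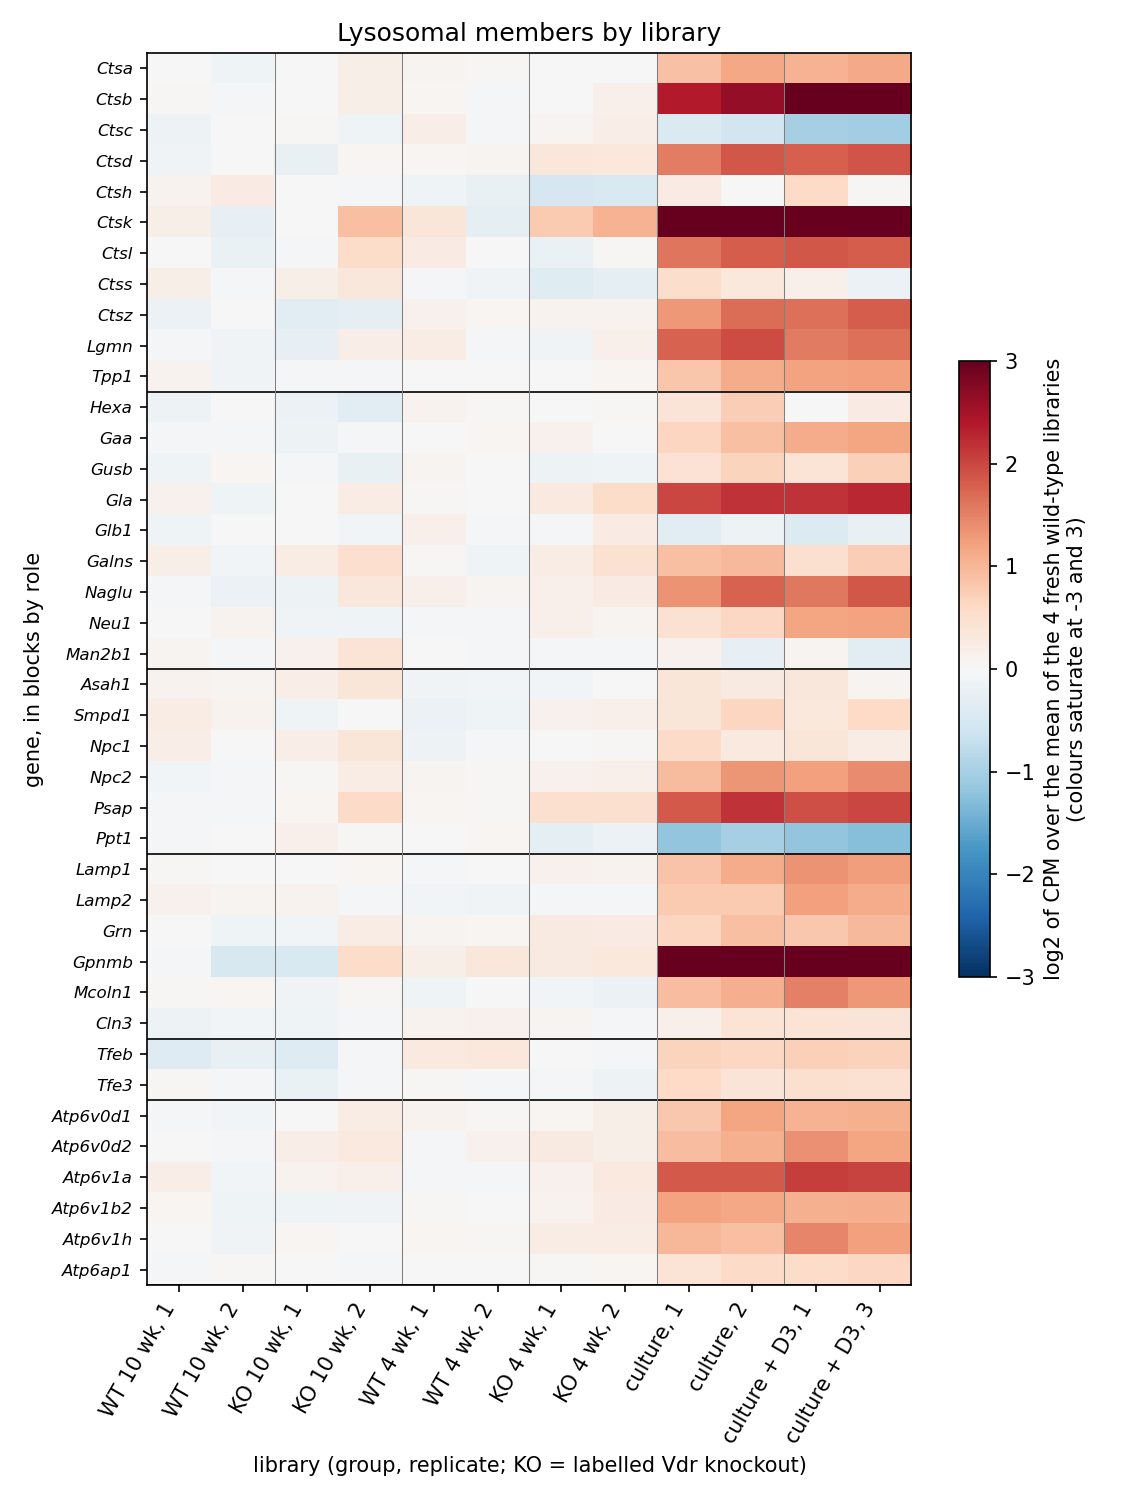
Levels of the 40 genes (rows, in blocks by role) in each of the 12 libraries (columns), as the log2 ratio of CPM to the mean of the 4 fresh wild-type libraries, with colours saturating at -3 and 3. The 8 fresh columns are pale and the 4 cultured columns are mostly red, with Ctsc, Ppt1 and Glb1 blue in culture.

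Untreated culture was first set against fresh wild-type cells, since culture is the state in which vitamin D3 was tested. Against 10-week cells 33 of the 40 genes rose and 2 fell at an adjusted p under 0.05 (edgeR quasi-likelihood test, adjusted over all 12748 genes), and against 4-week cells 34 rose and 2 fell. Of all genes tested 42.4% were called against 10 weeks (21.2% higher and 21.2% lower) and 39.7% against 4 weeks (20.1% higher and 19.5% lower). The median log2 fold change of the 40 genes was 0.96 against 10 weeks and 0.93 against 4 weeks, beside medians of -0.024 and -0.017 over all genes. Both comparisons use the same 2 cultured libraries. In 30 of the 40 genes all 4 cultured libraries, with or without vitamin D3, lay above all 8 fresh ones, which 18.2% of all genes tested did. In 3 genes (Ctsc, Glb1 and Ppt1) they lay below, which 16.6% of all genes did, and in 7 they overlapped.

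Culture differed from the fresh state in more than the medium. Handling, elapsed time, possibly age and, against 10 weeks, in part sex changed with it, and these cannot be told apart. The library titles fall into 2 number series, and each series holds 1 untreated cultured library and 1 fresh wild-type library at 10 weeks. Within both series 35 of the 40 genes were higher in culture than at 10 weeks and 3 were lower in both, a count not made over all genes. In 1 series the fresh library was replicate 2, which was female and has a knockout code, whereas the cultured libraries were male. The 4-week libraries are all in 1 series, so no such value within both can be had for them. Summed levels of 11 alveolar macrophage markers were 23550 to 43390 CPM in fresh cells and 12140 to 14050 CPM in culture, with none of them at 0. Of these markers 2 rose (Itgax and Fabp4) and 6 fell in untreated culture against 10 weeks. Markers of lung epithelium (11 genes) summed to 49.15 to 422.8 CPM in fresh libraries and 12.36 to 17.89 CPM in cultured ones, and erythroid markers (3 genes) to 17.17 to 2561 CPM and 0.541 to 1.862 CPM. Summed dendritic cell markers (8 genes) were 18.76 to 99.77 CPM fresh and 28.57 to 40.22 CPM cultured, T cell markers (7 genes) 131.1 to 255.4 CPM and 124 to 227.4 CPM, neutrophil markers (6 genes) 66.85 to 95.07 CPM and 60.73 to 82.59 CPM, and monocyte and interstitial macrophage markers (8 genes) 7.858 to 26.99 CPM and 26.24 to 46.96 CPM. Of 6 monocyte and interstitial macrophage markers tested 1 rose and 2 fell in untreated culture against 10 weeks. There 5 of the 6 had values below 0, whereas against 4 weeks 1 rose, 1 fell and 5 had values above 0. B cell markers (4 genes) reached at most 5.31 CPM and endothelial and stromal markers (5 genes) at most 7.006 CPM in any library. Single markers moved more than these sums. In untreated culture against 10 weeks 3 of 7 T cell markers and 5 of 7 dendritic cell markers tested fell. Of 5 neutrophil markers tested 2 rose and 1 fell. Against 4 weeks 2 of the T cell markers fell, 1 of the dendritic cell markers rose and 2 fell, and 2 of the neutrophil markers rose and 3 fell. Up to 2 of the T cell markers, 3 of the neutrophil markers and all 4 of the B cell markers were at 0 in a cultured library. The part of these shifts in the lysosomal result was not tested, and in bulk RNA fewer cells of a type and less RNA per cell cannot be told apart.

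Among the cathepsins and other proteases 9 of 11 rose and 1 fell against both ages, with a median log2 fold change of 1.59 against 10 weeks and 1.42 against 4 weeks. Ctsb encodes a cysteine protease with both endopeptidase and peptidyl-dipeptidase activity. Ctsb had 1568 and 1505 CPM in fresh wild-type cells at 10 weeks and 1602 and 1468 CPM at 4 weeks. In untreated culture it had 8042 and 9598 CPM. The cultured libraries were about as far above one age as above the other, and the log2 fold change was 2.52 ± 0.12 (SE) against each. Ctsk had 414.4 and 309.9 CPM at 10 weeks, 472.6 and 299.9 CPM at 4 weeks and 4805 and 5169 CPM in culture. Its log2 fold change of 3.78 ± 0.30 (10 weeks, 13.8-fold) and 3.69 ± 0.30 (4 weeks, 12.9-fold) was the second highest of the 40. Ctsd, already the most abundant of these transcripts, went from 6930 and 7403 CPM at 10 weeks to 21530 and 27000 CPM (1.76 ± 0.13, edgeR adjusted p = 1.34e-06).

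The asparaginyl endopeptidase Lgmn, which cleaves other cathepsins to their mature form, rose by 1.95 ± 0.16 on the log2 scale against 10 weeks, Ctsl by 1.82 ± 0.18, Ctsz by 1.59 ± 0.13, the protective protein Ctsa by 1.09 ± 0.11 and the tripeptidyl peptidase Tpp1 by 0.97 ± 0.11. Ctss, the protease that trims the invariant chain of MHC class II, rose by only 0.36 ± 0.13 (edgeR adjusted p = 0.042), and that call was lost without either 10-week library (edgeR adjusted p = 0.051 and 0.244) or without untreated culture replicate 1 (edgeR adjusted p = 0.187). Ctsh, an aminopeptidase, did not pass the test at either age (-0.063 ± 0.16 and 0.30 ± 0.16). Ctsc, the dipeptidyl peptidase that activates serine proteases of leukocyte granules, went the other way, from 797.3 and 886.8 CPM at 10 weeks to 656 and 596.9 CPM in culture. It fell by 0.43 ± 0.11 on the log2 scale against 10 weeks (edgeR adjusted p = 0.00991) and by 0.60 ± 0.11 against 4 weeks (edgeR adjusted p = 0.00142), and the 10-week call was lost without wild-type replicate 2 (edgeR adjusted p = 0.0837) or without untreated culture replicate 2 (edgeR adjusted p = 0.0637).

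**Figure D2:**
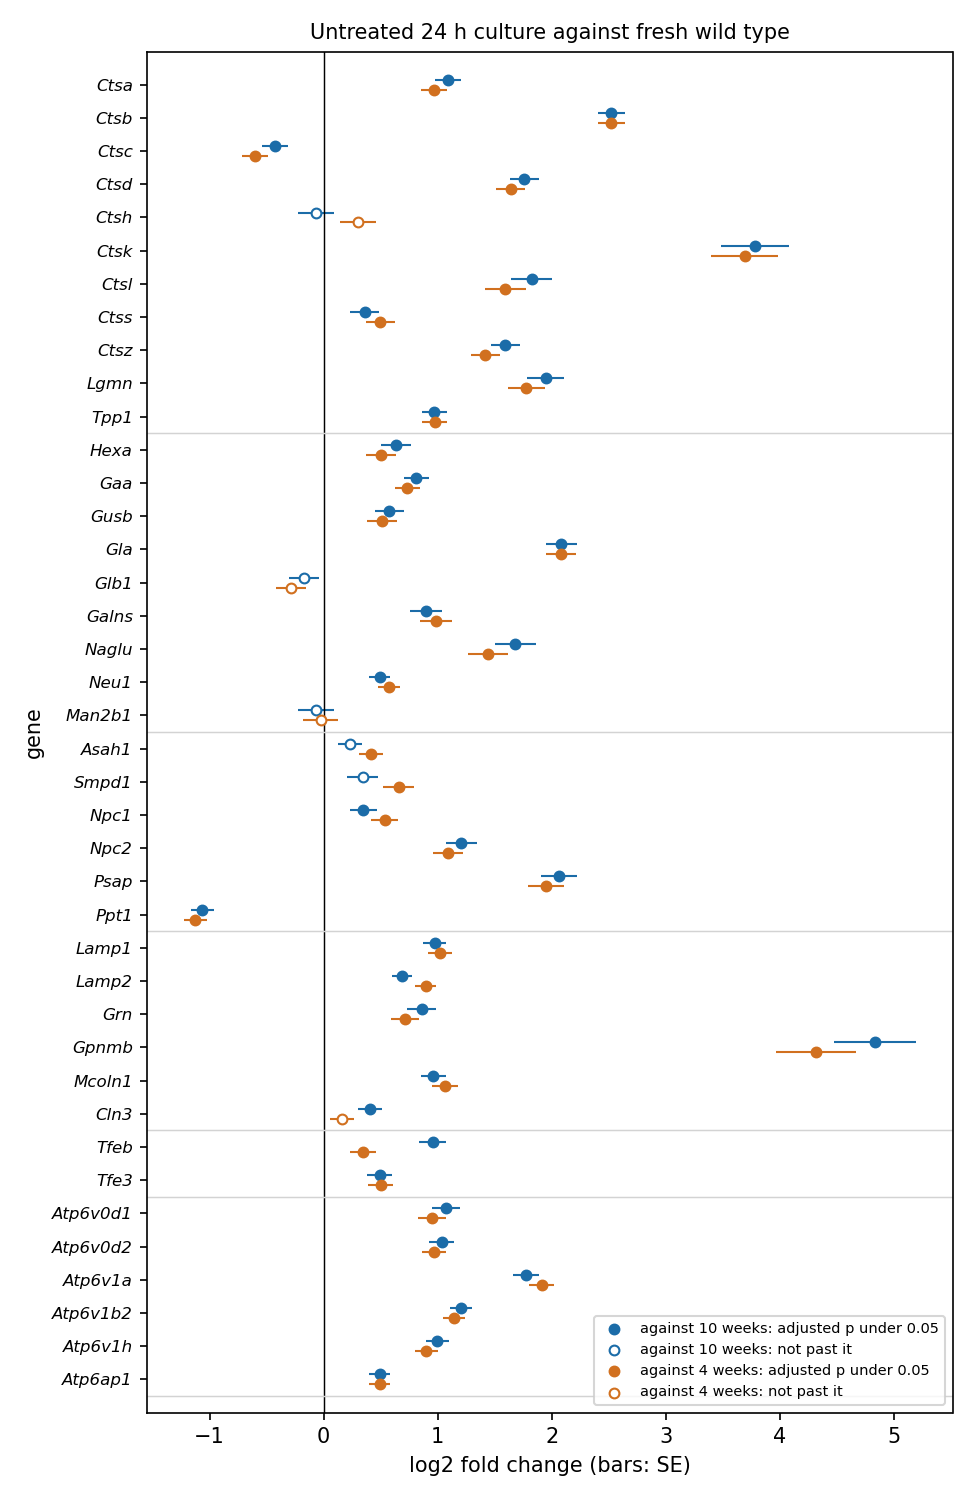
Log2 fold change with its SE for each of the 40 genes in untreated 24 h culture against fresh wild-type cells at 10 weeks (blue) and at 4 weeks (orange). Filled points passed an adjusted p of 0.05. Gpnmb and Ctsk lie farthest to the right, and Ppt1 and Ctsc are the filled points below 0.

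Of the glycosidases and the sulfatase 7 of 9 rose against both ages and none fell. Gla, the alpha-galactosidase that removes the terminal sugar of globotriaosylceramide, had 60.86 and 51.05 CPM at 10 weeks, 57.22 and 55.19 CPM at 4 weeks and 224.2 and 251.7 CPM in culture. The cultured libraries were 4.24-fold above 10 weeks and 4.23-fold above 4 weeks (log2 fold change 2.09 ± 0.13 and 2.08 ± 0.13). Naglu, which trims heparan sulfate, rose by 1.68 ± 0.18 against 10 weeks, Galns, a sulfatase of keratan sulfate, by 0.90 ± 0.14, the acid alpha-glucosidase Gaa by 0.81 ± 0.11, the hexosaminidase subunit Hexa by 0.64 ± 0.13, the beta-glucuronidase Gusb by 0.58 ± 0.13 and the sialidase Neu1 by 0.49 ± 0.093. The beta-galactosidase Glb1 (-0.17 ± 0.13 and -0.29 ± 0.13) and the alpha-mannosidase Man2b1 (-0.067 ± 0.15 and -0.026 ± 0.15) did not pass the test. Glb1 and Neu1 encode enzymes that work in a complex with Ctsa, so the 3 partners differed in this comparison: Ctsa and Neu1 passed as higher and Glb1 did not pass.

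In the lipid group 3 of 6 rose and 1 fell against 10 weeks, and 5 rose and 1 fell against 4 weeks. Psap, precursor of the saposins that present glycolipids to hydrolases, had 5794 and 5690 CPM at 10 weeks, 6259 and 6139 CPM at 4 weeks and 21310 and 26610 CPM in culture. The log2 fold change was 2.06 ± 0.16 against 10 weeks and 1.95 ± 0.16 against 4 weeks. Npc2, the soluble carrier that hands cholesterol to Npc1, rose by 1.21 ± 0.13 against 10 weeks, and Npc1 itself by 0.35 ± 0.12 (edgeR adjusted p = 0.0345). The acid ceramidase Asah1 (0.23 ± 0.11 and 0.42 ± 0.11) and Smpd1 (0.34 ± 0.13 and 0.66 ± 0.13) passed against 4 weeks but not against 10 weeks (edgeR adjusted p = 0.0988 and 0.0572), and the Asah1 call was lost without 4-week wild-type replicate 1 (edgeR adjusted p = 0.0668).

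Ppt1, the thioesterase that removes palmitate from proteins, had 360.7 and 369.3 CPM at 10 weeks, 375.5 and 385.4 CPM at 4 weeks and 163.5 and 186 CPM in culture. It fell by 1.06 ± 0.10 on the log2 scale against 10 weeks and by 1.12 ± 0.10 against 4 weeks (edgeR adjusted p = 8.16e-06 and 5.66e-06). All 4 cultured libraries were below all 8 fresh ones. Exons of Ppt1 overlap those of Cap1 on the opposite strand by 32 bases in GENCODE vM21, and Cap1 had 1022 to 1142 CPM in fresh cells and 1278 and 1166 CPM in untreated culture.

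The membrane and glycoprotein group had 6 of 6 higher against 10 weeks and 5 of 6 against 4 weeks. Gpnmb had 365.5 and 275.9 CPM at 10 weeks, 434.4 and 485.3 CPM at 4 weeks and 7351 and 10960 CPM in untreated culture. The rise was 4.83 ± 0.36 on the log2 scale (28.5-fold) against 10 weeks and 4.31 ± 0.35 (19.9-fold) against 4 weeks, the highest of the 40 in both comparisons. The calcium channel Mcoln1 rose by 0.96 ± 0.11 against 10 weeks, Lamp1 by 0.97 ± 0.10, Lamp2 by 0.69 ± 0.091, and Grn, the precursor of the lysosomal granulins, by 0.86 ± 0.13. Cln3, a membrane protein lost in juvenile Batten disease, rose by 0.41 ± 0.10 against 10 weeks (edgeR adjusted p = 0.00787) and did not pass against 4 weeks (0.16 ± 0.10, edgeR adjusted p = 0.245).

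Both transcription factors rose. Tfeb had 60.56 and 68.62 CPM at 10 weeks, 97.11 and 99.65 CPM at 4 weeks and 127.5 and 122.7 CPM in culture. Its rise was 0.96 ± 0.12 on the log2 scale against 10 weeks and 0.35 ± 0.12 against 4 weeks (edgeR adjusted p = 0.0328), and the second call was lost when any 1 of the 4 libraries was left out (edgeR adjusted p up to 0.157). Tfe3 rose by 0.49 ± 0.11 and 0.50 ± 0.11. Transcript levels say nothing of where either protein lay in the cell. Among the 13 genes with the core CACGTG in a promoter window 12 rose against 10 weeks, with a median log2 fold change of 1.09. Among the 19 with a window and no core 15 rose and 2 fell, with a median of 0.64, and among the 8 without a window 6 rose, with a median of 0.95. Against 4 weeks 11 of the 13 rose (median 1.06), 16 of the 19 rose and 2 fell (median 0.57), and 7 of the 8 rose, so the share that rose was close in all 3 sets there. No test was made of this split.

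All 6 pump genes rose against both ages. Atp6v1a, the catalytic subunit, had 274.2 and 225.9 CPM at 10 weeks, 228 and 227.4 CPM at 4 weeks and 855.7 and 856.8 CPM in culture (1.77 ± 0.11 and 1.91 ± 0.11 on the log2 scale). The second nucleotide-binding subunit Atp6v1b2 rose by 1.20 ± 0.097 against 10 weeks, Atp6v0d1 by 1.07 ± 0.13, Atp6v0d2 by 1.03 ± 0.11, the regulatory subunit Atp6v1h by 0.996 ± 0.10 and the accessory protein Atp6ap1 by 0.49 ± 0.093. Of 12 other pump subunits tested, 11 rose and 1 fell against 10 weeks, and 10 rose and none fell against 4 weeks. The V1 subunits Atp6v1c1 and Atp6v1e1 rose by 2.20 ± 0.13 and 1.47 ± 0.096 against 10 weeks, and the V0 subunits Atp6v0a1 and Tcirg1 by 1.80 ± 0.12 and 1.20 ± 0.094. Atp6v0a2 was the subunit that fell (-0.31 ± 0.11, edgeR adjusted p = 0.049).

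A further 114 tested genes of lysosome biology, grouped in 7 lists, give the setting. In untreated culture 71 rose and 14 fell against 10 weeks, and 71 rose and 12 fell against 4 weeks, with median log2 fold changes of 0.64 and 0.54. The shares called were 74.6% and 72.8%, beside 42.4% and 39.7% of all genes tested. Of 28 other hydrolases and activators 19 rose and 4 fell against 10 weeks, led by Hgsnat, the acetyltransferase of heparan sulfate breakdown (3.15 ± 0.19), and the acid lipase Lipa (2.28 ± 0.16). Of 25 other membrane proteins 15 rose and 2 fell. Slc11a1, the metal transporter of phagosomes, rose by 5.52 ± 0.42, from 11.08 and 6.727 CPM to 430.3 and 404.3 CPM. Tpcn2, a calcium and sodium channel, rose by 1.98 ± 0.12, the macrophage marker Cd68 by 1.86 ± 0.14, and the sialomucin Cd164 fell by 1.57 ± 0.096. Of 12 sorting genes 4 rose and 2 fell, and the mannose-phosphate receptor Igf2r rose by 3.60 ± 0.45. Of 13 regulators 9 rose and 1 fell: Fnip2, a partner of folliculin, rose by 2.83 ± 0.15, and Tfec, a relative of Tfeb, fell by 1.70 ± 0.18. Of 20 autophagy genes 11 rose and 3 fell. Among 4 inhibitors of cathepsins and granule proteases Cstb, which blocks cysteine cathepsins, rose by 2.36 ± 0.15, Serpinb6a rose by 0.95 ± 0.14 and Serpinb1a, an inhibitor of neutrophil serine proteases, fell by 2.73 ± 0.13.

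The hormone that binds the receptor is made from vitamin D3, and the sample names, which give VD3, do not say which form was added. Vitamin D3, as labelled, was then compared with no addition within culture. Vdr itself was at 7.82 and 7.61 CPM without it and 72.1 and 42.4 CPM with it (log2 fold change 2.89 ± 0.36, edgeR adjusted p = 0.000433). Of the 40 genes 6 rose and 1 fell by edgeR at an adjusted p under 0.05, where 10.6% of all genes tested were called (5% higher and 5.63% lower). The median log2 fold change of the 40 was 0.073, beside 0 over all genes, and 24 of the 40 values were above 0. The untreated libraries are the same ones that were set against fresh cells above. The 6 that rose were 1 cathepsin, 2 glycosidases, 2 membrane proteins and 1 pump subunit, none of the lipid genes passed, and neither transcription factor did.

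Neu1 showed the firmest rise. It had 261.2 and 291.7 CPM without vitamin D3 and 432.9 and 441.2 CPM with it, and every fresh library was at 213 CPM or lower. The log2 fold change was 0.66 ± 0.093 (1.58-fold, edgeR adjusted p = 0.000887), and it was the call that held under every alternative run. Ctsb rose from 8042 and 9598 CPM to 13620 and 13110 CPM, a log2 fold change of 0.60 ± 0.11 (1.51-fold, edgeR adjusted p = 0.0056). Its 4 cultured libraries were without overlap between the doses, as were those of 48.9% of all genes tested. With vitamin D3 Ctsb stood at 2819 CPM per kb against 1860 CPM per kb without. The exons of Ctsb overlap those of Fdft1 on the opposite strand by 774 bases, and Fdft1 went the other way, from 137.7 and 139.4 CPM to 95.6 and 97.72 CPM.

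Lamp2, a structural glycoprotein of the lysosomal membrane, had 733.9 and 729.8 CPM without vitamin D3 and 988.7 and 914.6 CPM with it (0.38 ± 0.090, edgeR adjusted p = 0.0195). Atp6v1h had 168 and 159.1 CPM and then 232.4 and 199.9 CPM (0.40 ± 0.10, edgeR adjusted p = 0.0248). Rgs20, whose exons overlap those of Atp6v1h on the opposite strand, had at most 0.4828 CPM in any library. Mcoln1 rose from 173 and 193.4 CPM to 258.3 and 223.2 CPM (0.40 ± 0.11, edgeR adjusted p = 0.0397), and Gaa from 229.5 and 276 CPM to 318 and 335.8 CPM (0.37 ± 0.11, edgeR adjusted p = 0.0439). In all of these the treated libraries were above the untreated ones without overlap. Of all genes tested 48.9% were without overlap between the doses, in either direction. Ctsc fell further, from 656 and 596.9 CPM to 444.7 and 434.9 CPM (-0.51 ± 0.11, edgeR adjusted p = 0.0139).

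The 6 calls other than Neu1 were less firm. In a fit of the 4 cultured libraries alone Neu1 was the 1 call of the 40, and the adjusted p of the other 6 lay between 0.0824 and 0.21. Leaving out untreated replicate 1 left 3 calls and leaving out treated replicate 1 left 3. The treated replicates are numbered 1 and 3 and the untreated ones 1 and 2. Each number series of the titles held 1 library of each kind, and within the 2 series the log2 difference was 0.73 and 0.60 for Neu1, 0.76 and 0.45 for Ctsb, 0.43 and 0.33 for Lamp2, 0.47 and 0.33 for Atp6v1h, 0.58 and 0.21 for Mcoln1, 0.47 and 0.28 for Gaa and -0.56 and -0.46 for Ctsc. Over the 40 genes 20 were higher and 13 lower in both series, a count not made over all genes. Summed T cell markers, at 220 and 227.4 CPM without vitamin D3, were at 124 and 138 CPM with it, and summed neutrophil markers, at 76.27 and 82.59 CPM, were at 60.73 and 65.61 CPM. Of 7 T cell markers 1 passed as lower, and 3 of the 7 had values above 0. Of 5 neutrophil markers tested 1 passed as lower. Summed monocyte and interstitial macrophage markers, at 29.55 and 26.24 CPM, were at 46.96 and 39.55 CPM. Of the 6 of these markers tested none passed, and 2 had values above 0 and 4 below. Summed alveolar macrophage markers were at 12480 and 12440 CPM without and 14050 and 12140 CPM with vitamin D3, while 3 of the 11 rose and 3 fell, with log2 fold changes from -1.56 to 3.24. The part of these markers in the lysosomal results was not tested.

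**Figure D3:**
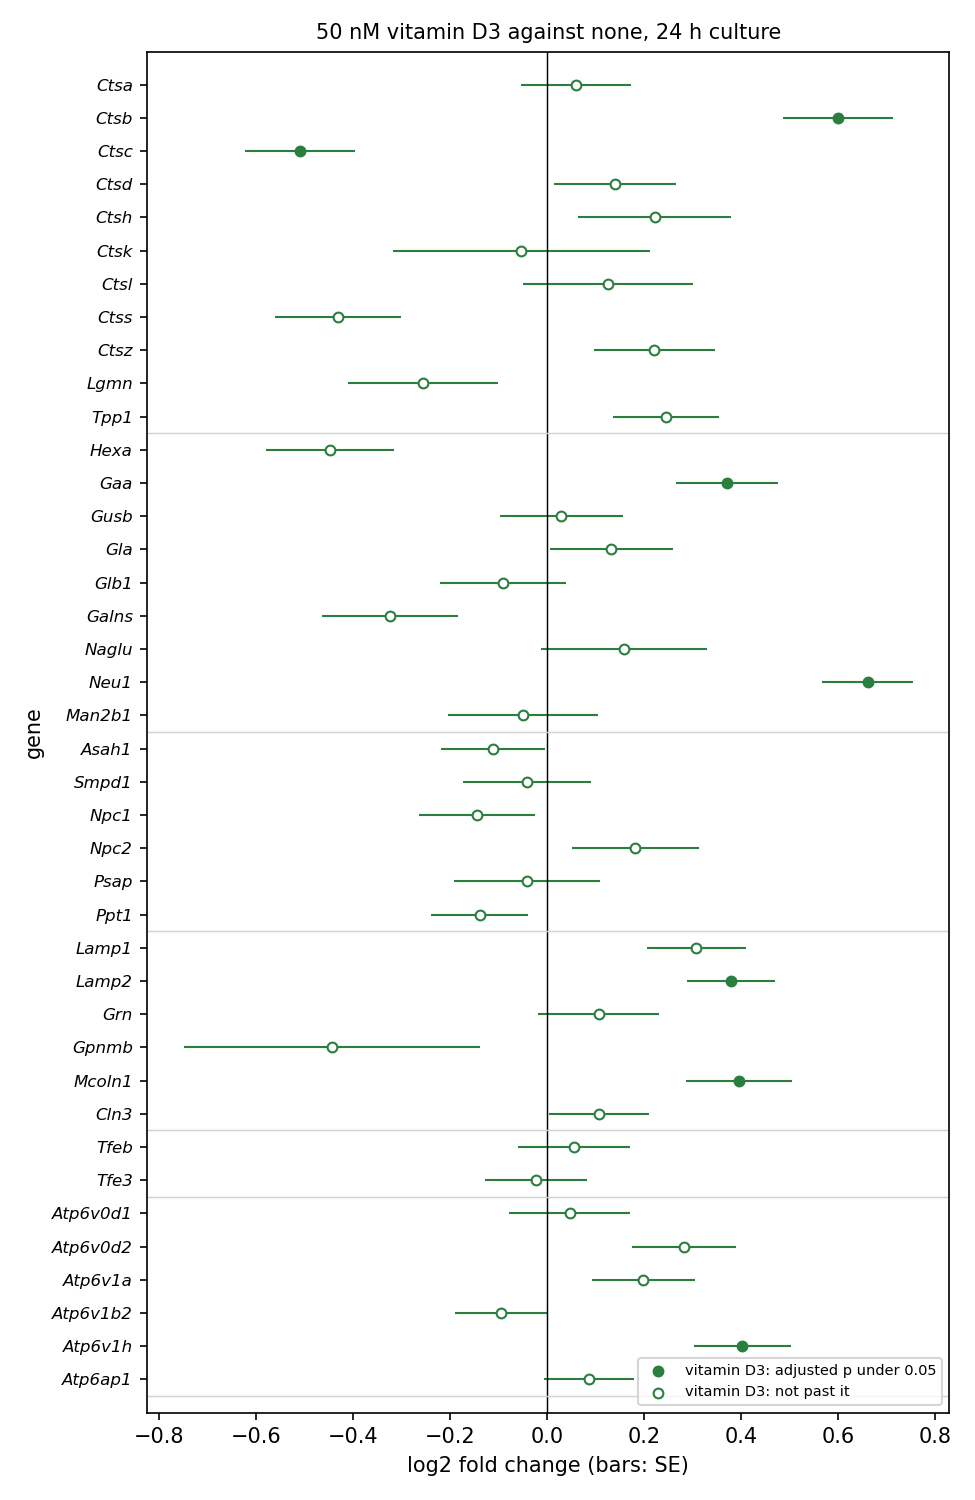
Log2 fold change with its SE for each of the 40 genes, vitamin D3 (50 nM) against none in 24 h culture. The 7 filled points passed an adjusted p of 0.05, 6 of them above 0 and Ctsc below it.

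For the remaining 33 genes the difference did not pass the test, and its 95% interval lay within 2-fold in either direction for 39 of all 40. The exception was Gpnmb, with 7351 and 10960 CPM without vitamin D3 and 5112 and 8347 CPM with it (-0.44 ± 0.31, 95% interval from -1.11 to 0.22 on the log2 scale). Its replicates overlapped between the doses. Ctsk was at 4805 and 5169 CPM without vitamin D3 and 4629 and 4982 CPM with it (-0.053 ± 0.26, 95% interval from -0.63 to 0.53). Hexa (-0.45 ± 0.13, edgeR adjusted p = 0.0511) and Ctss (-0.43 ± 0.13, edgeR adjusted p = 0.0567) fell just short of passing and are named after their values were seen.

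Of the 114 other genes of lysosome biology 16 rose and 9 fell with vitamin D3 (21.9%, where 10.6% of all genes tested were called). The arylsulfatase Arsb, which removes sulfate from dermatan and chondroitin sulfate, had 28.62 and 24.37 CPM without it and 105.2 and 66.95 CPM with it (1.70 ± 0.18, edgeR adjusted p = 0.00012), whereas in untreated culture it had fallen against fresh cells (-1.25 ± 0.18 against 10 weeks). Gnptab, which makes the mannose-phosphate tag on hydrolases, rose from 179.8 and 137 CPM to 345.7 and 292.6 CPM (1.01 ± 0.15), and Igf2r, a receptor for that tag, fell from 36.44 and 48.91 CPM to 6.885 and 17.42 CPM (-1.83 ± 0.40). Among hydrolases the sulfatase Ids (-0.77 ± 0.11) and the phospholipase Pla2g15 (-0.51 ± 0.10) fell and Hgsnat rose (0.76 ± 0.17). Tpcn2 rose by 0.88 ± 0.11, the nucleoside transporter Slc29a3 by 0.75 ± 0.12 and the late endosomal GTPase Rab7 by 0.45 ± 0.096. Of the 12 other pump subunits Tcirg1 (0.41 ± 0.093) and Atp6v0a2 (0.44 ± 0.11) rose, and all 12 had values above 0, with a median of 0.25.

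**Figure D4:**
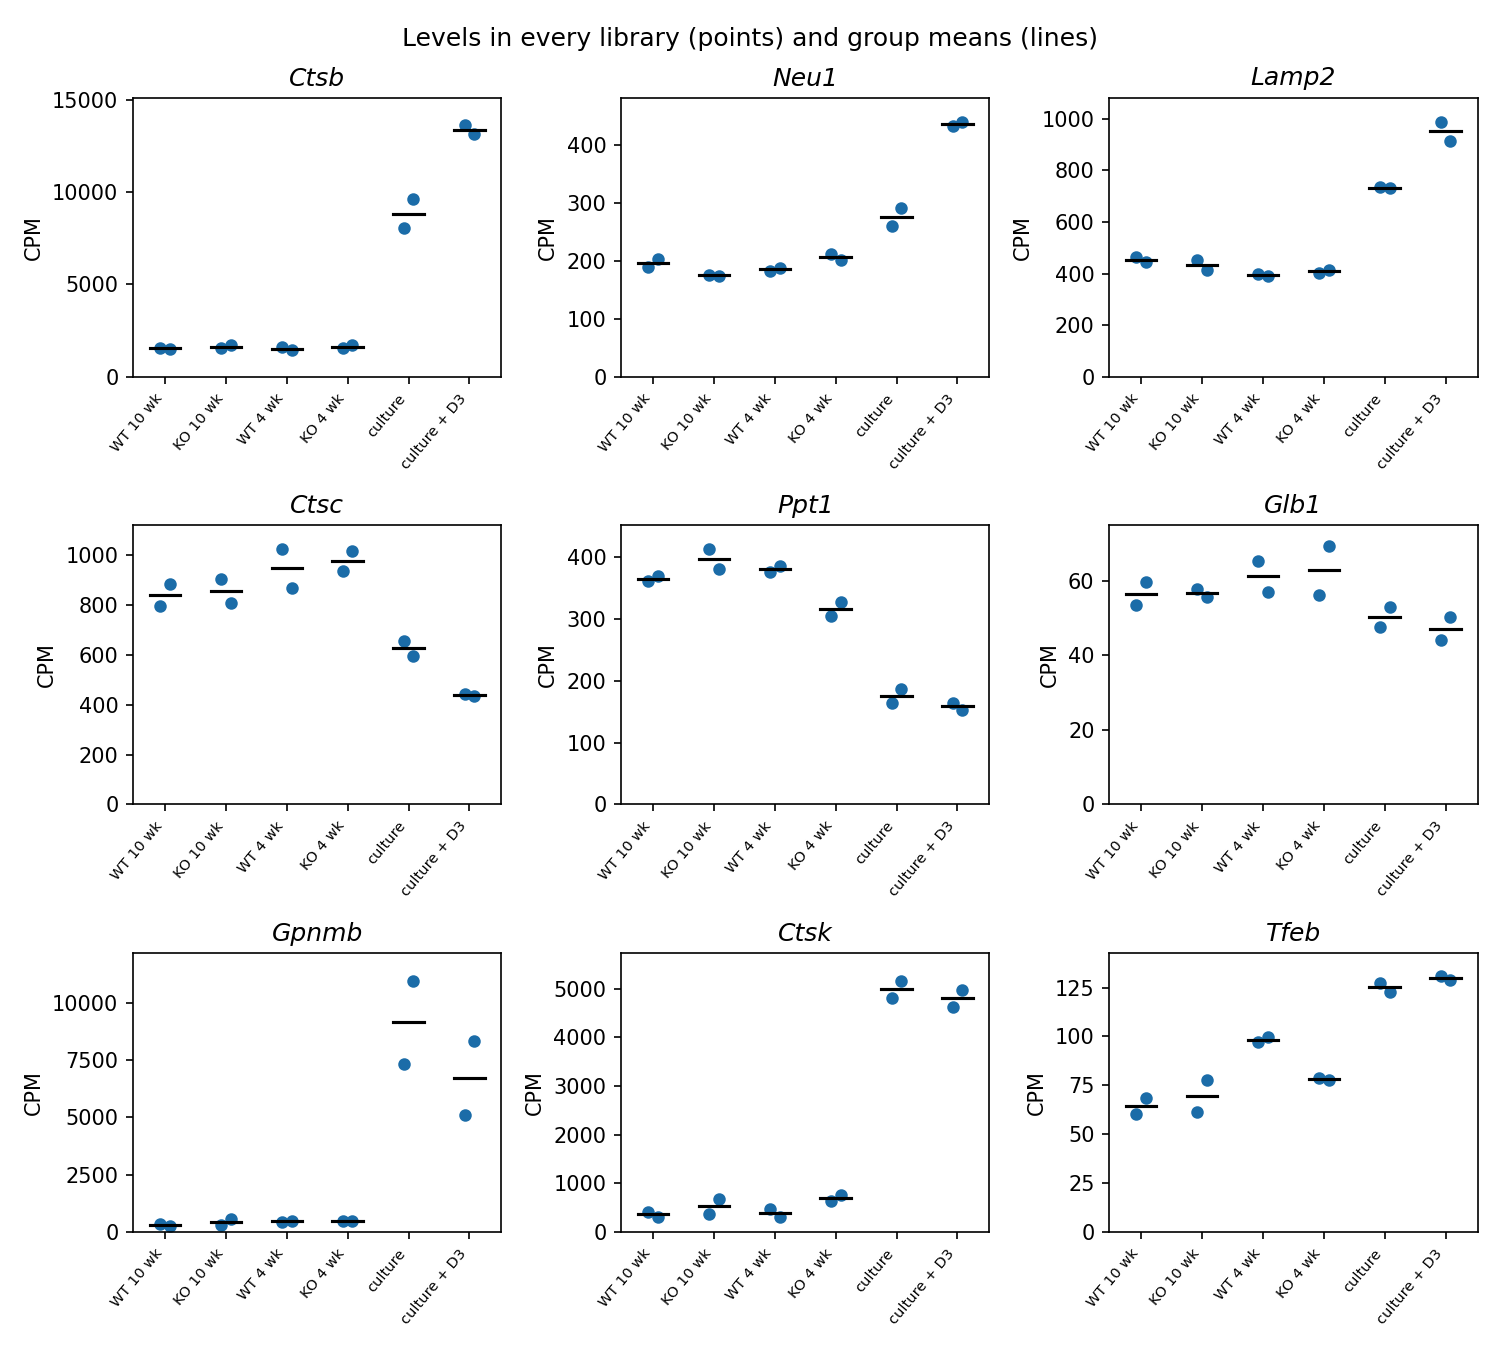
CPM of 9 genes in every library (points) with group means (lines), by group, on linear axes from 0. Ctsb, Neu1 and Lamp2 step up from fresh to cultured cells and again with vitamin D3, Ctsc steps down, and Gpnmb and Ctsk are high in all 4 cultured libraries.

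Libraries labelled VDR knockout were compared with wild type in fresh cells of each age. None of the 40 genes passed the test at 10 weeks, where edgeR called 0.11% of all genes, or at 4 weeks, where it called 0.667%, or over both ages, where it called 0.996%. At an unadjusted p under 0.05 there were 3, 8 and 7 of the 40, beside 1244, 1525 and 1668 of all 12748 genes. DESeq2 called 0, 0 and 3 of the 40, where it called 1.16%, 2.12% and 3.03% of all genes. The median log2 fold change of the 40 was 0.076 at 10 weeks, 0.048 at 4 weeks and 0.042 over both. The 95% intervals lay within 2-fold in either direction for 38 of the 40 at 10 weeks and 39 at 4 weeks, and within 1.5-fold for 33 at each age, so a small difference could not be seen at this replication.

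The members nearest to a call over both ages were Psap, Ctsk and Galns. Psap had 6232 and 8858 CPM in knockout against 5794 and 5690 CPM in wild type at 10 weeks, and 8360 and 8260 against 6259 and 6139 CPM at 4 weeks. All 4 knockout libraries exceeded the wild-type libraries of the same age, and 10-week knockout replicate 1 was the nearest to them (0.41 ± 0.11 on the log2 scale over both ages, edgeR adjusted p = 0.114). Without that library, 1 of the 2 whose label is in conflict, Psap and Ctsk passed (edgeR adjusted p = 0.0119 and 0.0216). With the 2 labels in conflict exchanged neither did (Psap 0.35, edgeR adjusted p = 0.455; Ctsk 0.60, edgeR adjusted p = 0.449). Without the 2 female libraries the differences were smaller (Psap 0.26, edgeR adjusted p = 0.423; Ctsk 0.34, edgeR adjusted p = 0.612). Ctsk had 366.3 and 682.2 CPM in knockout and 414.4 and 309.9 CPM in wild type at 10 weeks, which overlap, and 636.5 and 755.9 against 472.6 and 299.9 CPM at 4 weeks, which do not (0.69 ± 0.19 over both ages, edgeR adjusted p = 0.13). Galns had 103 and 125.3 against 99.55 and 83.97 CPM at 10 weeks and 103.3 and 122.5 against 91.1 and 81.64 CPM at 4 weeks, without overlap at either age (0.35 ± 0.10, edgeR adjusted p = 0.146). Of all genes tested 40.6% were without overlap between genotypes at 10 weeks and 48.6% at 4 weeks, in either direction. By DESeq2 Psap and Galns were among its 3 calls over both ages (adjusted p = 0.00485 and 0.033). Markers of other cells moved with genotype too. Summed dendritic cell markers were at 29.26 and 27.2 CPM in knockout against 62.28 and 80.18 CPM in wild type at 10 weeks and 18.76 and 19.9 against 99.77 and 35.34 CPM at 4 weeks, and 2 of 7 tested were lower over both ages. Of 3 erythroid markers 2 were lower over both ages, and of 6 monocyte and interstitial macrophage markers tested 1 was. Summed lung epithelial markers were at 422.8 and 311.7 CPM in knockout against 182.7 and 227.2 CPM in wild type at 10 weeks. At 4 weeks they were at 62.53 and 223.1 against 100.9 and 49.15 CPM. Of the 11 epithelial markers 1 was higher at 10 weeks, and none passed at 4 weeks or over both ages. Summed alveolar macrophage markers were at 29270 and 32980 against 23550 and 24160 CPM at 10 weeks and 31160 and 43390 against 29550 and 26850 CPM at 4 weeks. Their part in the values of Psap, Ctsk and Galns was not tested.

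At 10 weeks the gene nearest to a call was Atp6v0d2 (0.28 ± 0.11, edgeR adjusted p = 0.393), with 1404 and 1489 CPM in knockout and 1220 and 1159 CPM in wild type, followed by Psap and Galns. Within the 2 number series of the titles Ctsk differed by -0.18 and 1.14 on the log2 scale, Gpnmb by -0.39 and 1.02 and Psap by 0.11 and 0.64. In each gene the larger value belonged to the female pair, replicate 2. Each pair also held a library whose description code contradicts its genotype label. By those codes both libraries of a pair would share a genotype. Over the 40 genes 13 were higher and 9 lower in both series, a count not made over all genes. At 4 weeks the nearest were Ctsk (0.85 ± 0.27, edgeR adjusted p = 0.224), Gla (0.41 ± 0.13, edgeR adjusted p = 0.224) and Tfeb (-0.33 ± 0.12, edgeR adjusted p = 0.279). In a fit of the 4 libraries at 4 weeks alone 6 of the 40 passed, 3 higher and 3 lower, where 5.29% of all genes did.

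Whether the genotype difference itself changed with age was tested as an interaction, in which 0.188% of all genes were called and none of the 40 by edgeR or DESeq2. At an unadjusted p under 0.05 there were 6 of the 40 and 1103 of all genes. The nearest were Smpd1 (-0.53 ± 0.19, edgeR adjusted p = 0.471), Ppt1 (0.39 ± 0.14, edgeR adjusted p = 0.478) and Tfeb (0.43 ± 0.17, edgeR adjusted p = 0.519). Of the 114 other genes Serpinb1a was higher in knockout at 4 weeks (0.60 ± 0.12, edgeR adjusted p = 0.0494) and with the ages pooled (0.53 ± 0.085, edgeR adjusted p = 0.0184), and Pla2g15 was lower at 4 weeks (-0.54 ± 0.10, edgeR adjusted p = 0.0378) and with the ages pooled (-0.35 ± 0.071, edgeR adjusted p = 0.045). None of the 114 passed at 10 weeks alone by edgeR, where 11 had an unadjusted p under 0.05.

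**Figure D5:**
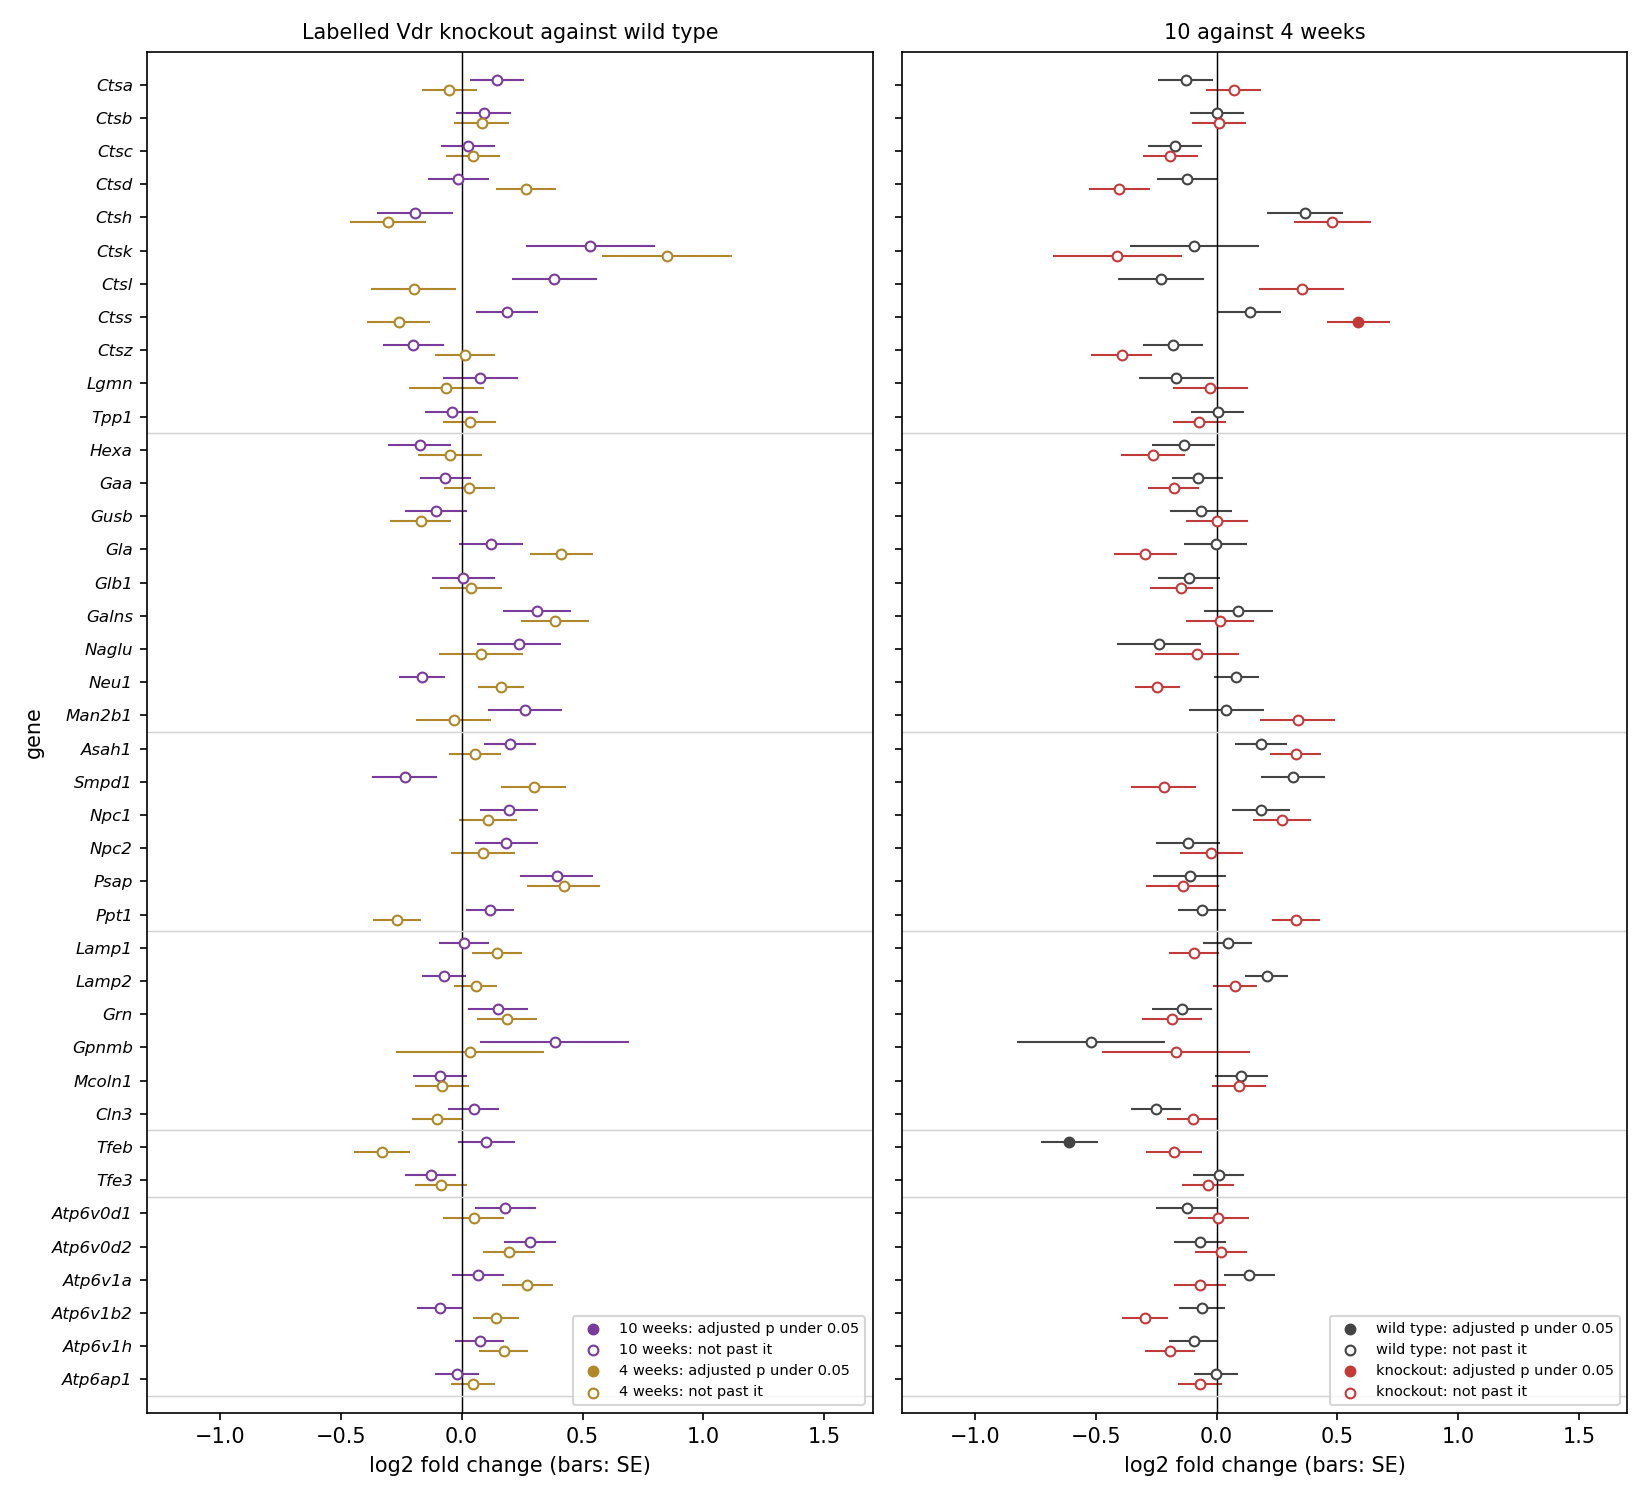
Log2 fold change with its SE for each of the 40 genes in fresh cells. Left, libraries labelled Vdr knockout against wild type at 10 weeks (purple) and 4 weeks (ochre), with no filled point. Right, 10 against 4 weeks in wild type (black) and in knockout (red), where Tfeb in wild type and Ctss in knockout are the filled points.

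Age was compared in fresh cells of each genotype. All 4 libraries at 4 weeks were male and in 1 number series of the titles, whereas each 10-week group held 1 library of each series and of each sex, so age is partly confounded with both. In wild type 1 of the 40 genes was called, where 2.11% of all genes were, and in knockout 1 was called, where 9.73% were. Of all genes tested 54.6% were without overlap between the ages in wild type and 57.3% in knockout. Tfeb was lower at 10 than at 4 weeks in wild type, with 60.56 and 68.62 against 97.11 and 99.65 CPM. The groups did not overlap, and it fell by 0.61 ± 0.12 on the log2 scale (edgeR adjusted p = 0.0247), a call lost when any 1 of the 4 libraries was left out (edgeR adjusted p between 0.0556 and 0.246). In knockout Tfeb was at 61.34 and 77.54 CPM at 10 weeks and 78.91 and 77.63 CPM at 4 weeks (-0.18 ± 0.12, edgeR adjusted p = 0.369). Ctss was higher at 10 than at 4 weeks in knockout, with 3206 and 3574 against 2186 and 2332 CPM (0.59 ± 0.13, edgeR adjusted p = 0.0173). That call was lost without 10-week knockout replicate 2 (edgeR adjusted p = 0.0957), without either 4-week knockout library (edgeR adjusted p = 0.121 and 0.106) and with the labels in conflict exchanged (edgeR adjusted p = 0.068). In wild type Ctss was at 3179 and 2773 CPM at 10 weeks and 2763 and 2650 CPM at 4 weeks (0.14 ± 0.13, edgeR adjusted p = 0.608). The differences between genotypes in these age effects are the interaction above and did not pass. Erythroid markers, summed to 2561 and 1037 CPM in wild type at 4 weeks and 56.87 and 51.52 CPM at 10 weeks, moved with age. Of 11 lung epithelial markers 1 was higher at 10 weeks in wild type and 2 were higher in knockout. Of 11 alveolar macrophage markers 1 was lower at 10 weeks in wild type, and 2 were higher and 2 lower in knockout. The part of these markers in the Tfeb and Ctss differences was not tested.

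Of the 114 other genes none was called between ages in wild type by edgeR, where 16 had an unadjusted p under 0.05. In knockout 7 were higher and 3 lower at 10 weeks, a share of 8.77% beside 9.73% of all genes tested. Ids (0.77 ± 0.11), the protease Ctsf (0.75 ± 0.14), Gnptab (0.76 ± 0.15) and the sorting receptor Sorl1 (2.35 ± 0.48) were among the higher. Slc11a1 (-1.82 ± 0.42), the autophagy gene Gabarapl1 (-0.51 ± 0.12) and Serpinb1a (-0.56 ± 0.12) were the lower.

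Exons of 13 of the 40 genes overlap those of another gene in GENCODE vM21, and the sources used here give no strand setting for the counting. For those 13 (Ctsa, Ctsb, Ctsd, Ctsl, Ctsz, Hexa, Glb1, Npc1, Ppt1, Lamp1, Grn, Cln3 and Atp6v1h) reads in the shared stretch could have been given to either gene or to none.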

How the data were processed

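Per the labels' protocols, RNA of lavaged alveolar macrophages came from the Qiagen RNeasy Micro kit, and the KAPA mRNA HyperPrep kit gave the sequencing libraries. The authors deposited raw counts per gene, whose columns carry the library titles. The submitters' processing notes name TopHat2, edgeR and build mm9, without versions. The deposited log2 table was not used. Counting tool, strand setting and annotation: not given in the sources used here.

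Counts were fitted with edgeR 4.0.16 in R 4.3.3 (TMM scaling, filterByExpr with minimum count 10 and minimum total count 15, quasi-likelihood F test, all 12 libraries in 1 fit with 6 residual degrees of freedom) in 9 contrasts, with Benjamini-Hochberg adjustment over the 12748 genes tested and a threshold of 0.05. CPM values are scaled by TMM effective library sizes, and 1 count is worth 0.0483 to 0.0904 CPM, which limits precision for low genes. Values per kb use the union of exons of basic protein-coding transcripts in GENCODE vM21. SE is the log2 fold change divided by the root of F, and 95% intervals use the fit's total degrees of freedom.

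The genes and lists were chosen with earlier results of these data known. In each contrast the genes past the threshold are named, at most 8 per direction and 4 per list of other genes, or the 3 of the 40 with the smallest p where none passed. Scripts were tested on simulated data. Alternatives were DESeq2 1.42.0, DESeq2 size factors, no filter, a stricter filter, the compared groups alone, a replicate block, exchanged labels, no female libraries and leaving out each library.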

Additional observations from a re-analysis of the deposited data

How the results depend on the processing

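With 2 libraries per group the test rests on few degrees of freedom. Alternatives were run for the members called, or nearest to a call, in each comparison, and none of those reversed direction. The other named genes were not followed through them. For untreated culture against fresh wild type at 10 weeks, fits of all libraries or of the groups alone called 32.1% to 48.9% of genes. Of the 40 genes this comparison had 33 to 36 calls in those fits. Of its 35 calls 31 held throughout (Cln3, Ctsc, Ctss and Npc1 did not). Against 4 weeks 30 of 36 held (Asah1, Ctss, Gusb, Hexa, Npc1 and Tfeb did not). There the fits of all libraries or of the groups alone called 36 to 37 (30.1% to 46.1% of all genes). Percentages in brackets are the share of all genes called under the same setting. For vitamin D3 (7 called, 10.6%) the groups alone gave 1 (5.54%), DESeq2 10 (12.8%) and leaving out 1 library 3 to 8 (4.11% to 10.1%). For knockout against wild type, where none was called, no filter gave 3 for 10 weeks (2.85%), 2 for 4 weeks (3.92%) and 3 with ages pooled (4.49%). There DESeq2 gave 3 with ages pooled (3.03%), the groups alone gave 6 at 4 weeks (5.29%), and leaving out 1 library gave 0 to 2 with ages pooled (0.181% to 1.39%). For age in wild type (1 called, 2.11%) no filter gave 3 (6.94%) and leaving out 1 library 0 (0.439% to 1.16%). For age in knockout (1 called, 9.73%) DESeq2 gave 6 (12.2%), no filter 5 (11.7%), the stricter filter 2 (11.9%), the groups alone 4 (11.8%), exchanged labels 0 (6.44%), no female libraries 0 (3.93%) and leaving out 1 library 0 to 2 (1.82% to 4.92%). The causes were not tested. A fit with the replicate number as a block gave 3 calls for age in knockout (11.1%) and 9 for vitamin D3 (12%, paired by title series). For culture against 10 weeks it gave 36 (43.9%). Deviations of same-numbered libraries correlated at 0.339 between genotypes at 10 weeks, where they share sex and title series, at 0.398 between the cultures by title series, and at -0.168 between genotypes at 4 weeks. With 2 pairs each and no shared animal named in the labels, the numbers were not taken to pair the libraries.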

Other observations

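Mitf, a relative of Tfeb and Tfe3, was at 46.77 to 66.6 CPM in all 12 libraries, fresh and cultured. Rragd, a GTPase of nutrient sensing at the lysosome, was at 0.1401 to 2.096 CPM in the 8 fresh libraries and at 16.23 to 29.07 CPM in the 4 cultured ones. The cystatin Cstb was at 117.1 to 190.1 CPM fresh and 576.5 to 693.6 CPM cultured, and Serpinb1a at 160 to 351.2 CPM fresh and 17.41 to 28.5 CPM cultured. Among the alveolar macrophage markers Fabp4 was at 57.3 to 108 CPM fresh, 599.5 and 977.8 CPM in untreated culture and 187.9 and 346.5 CPM with vitamin D3, and Car4 was at 216.1 to 639.5 CPM fresh and 0.6566 to 7.868 CPM in culture. Marco was at 2195 and 2086 CPM in the 4-week libraries labelled knockout and at 141.5 to 544.8 CPM in the other 10. These genes were picked after their values were seen.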
